A study of Homo sapiens with 6 samples.

Results

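The fragments described here are 5′ pieces of nuclear transfer RNAs (tRNAs) from A375 cells, an established human melanoma line. Together these pieces held a small part of the fragment counts. They were chosen from the table of tRNA-derived fragments by type, length and sequence, with earlier results of these data known. The structural type was 5′-tRF or 5′-half and the length 19 nt or more. Their first 15 bases differ from 10 starts set aside as common, and they have no exact match in the 22 mitochondrial tRNA genes. The 10 are of tRNA-Gly-GCC, tRNA-Glu, tRNA-Val, tRNA-His, tRNA-Lys and tRNA-Pro and their close copies. Of the 10, 7 had 5′ fragments of 19 nt or more in the table. Not all of the 10 were abundant in the table: their 5′ counts over all lengths ranged from 0 to 37265. The rule found 107 of 3443 fragments, with 1312 of 126840 counts (1.03%), among 298 5′ fragments of that length with 52.9% of all counts. They fell into 22 families that share their first 15 bases, 90 of them being 5′-tRFs and 17 5′-halves.

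Small RNA was sequenced from 3 libraries of wild-type A375 cells and 3 of A375 cells with a CRISPR/Cas9 knockout of DUS1L, and the knockout cells passed through clonal selection. How many clones stand behind the knockout libraries is not stated, so a p-value here reflects variation among libraries and not among clones. Wild-type cells were kept alongside and not targeted, and no other treatment is recorded for either group. The table holds only tRNA fragments, with no row for DUS1L or for a marker of melanoma or skin cells, so neither the knockout nor the cell type could be checked in it. Library totals ranged from 15742 to 32754 counts, which makes 1 count worth 30.5 to 63.5 CPM (counts scaled to the library total). Wild-type replicate 3 stood apart from the other wild-type libraries. Chi-square per degree of freedom was 12.6 against replicate 1 and 7.51 against replicate 2, while those 2 differed by 2.69. Results that turn on wild-type replicate 3 are given without it where that was run.

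A 5′ fragment keeps the start of the tRNA: the 5′ strand of the acceptor stem, the D-arm and, if long enough, the strand that leads to the anticodon loop, where nucleases such as angiogenin cut under stress. The D-loop is named for dihydrouridine, a reduced uridine made after transcription, and DUS1L is the human enzyme that places it at positions 16 and 17. Dihydrouridine can form only from a uridine, read here as T. The D-loop holds a nearly invariant pair of G residues that contacts the T-loop.

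The sequences of the most abundant fragment of each leading family are shown to place these sites. Each was decoded from the fragment's identifier, which encodes its bases. Capitals mark the bases between base 15 and the GG pair, where the enzyme's sites lie, and base positions are counted from 1 at the 5′ end.
Gly-TCC family, tRF-30-QNR8VP94FQFY: gcgttggtggtatagTggtgagcatagctg
Gln-CTG family, tRF-29-R9J89O9NF5JP: ggttccatggtgtaaTggttagcactctg
Leu family, tRF-25-SP5830MMUK: gtcaggatggccgagCggtctaagg
Lys-CTT family, tRF-33-P6QP4PW3FJI0W: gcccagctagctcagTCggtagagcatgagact
Phe-GAA family, tRF-19-PUDP4PK4: gccgaaatagctcagTTgg
Thr-TGT family, tRF-29-69JP4PRNFJEP: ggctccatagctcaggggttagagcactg
Ser family, tRF-20-OUR8309N: gacgaggtggccgagTggtt
Lys-TTT family, tRF-22-PY5P4PW3H: gcctggatagctcagTCggtag

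The families were named from 3 kinds of evidence. Members of 36 nt or more reach bases 34 to 36, which read TCC in the Gly family, CTT in the Lys-CTT family and GTA in a Tyr family whose sequence is not printed. Exact matches from the first base were sought in the 51 of 443 nuclear tRNA genes for which the reference held at least 19 bases, and 26 members with 73 counts matched. They placed the Phe family at TRF-GAA1-5 (chromosome 13, 94549650 to 94549722, minus strand), the Thr family at TRT-TGT6-1 (chromosome 5, 181191687 to 181191758, minus strand), 2 Tyr fragments at TRY-GTA5-3 among other Tyr genes (chromosome 14, 20653099 to 20653192, minus strand) and 2 Ile fragments at TRI-AAT4-1 (chromosome 17, 8226991 to 8227064, minus strand), all tRNA genes on GRCh38. The single Arg fragment matched TRR-ACG1-3 (chromosome 14, 22929701 to 22929773, plus strand) and TRR-ACG2-1 (chromosome 3, 45688999 to 45689071, minus strand). The most abundant Tyr fragment, of 25 nt, matched TRY-GTA5-1, for which the reference held all 93 bases, against 21 of TRY-GTA5-3. Other copies of these genes can share the sequence. The names Ser, Lys-TTT, Asp, Met and Val-TAC, and Gln-CTG and Leu for forms without a match, come from general knowledge of human tRNA sequences.

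A handful of tRNAs made up nearly all of the counts. Gly-TCC held 709 counts in 30 fragments (54.0% of member counts), Gln-CTG 302 counts in 6 fragments (23.0%) and the Leu family 140 counts in 11 fragments (10.7%), together 87.7%. Next came Lys-CTT with 51 counts, Tyr-GTA with 27, Phe-GAA with 18, Thr-TGT with 16, and Ser and Lys-TTT with 11 each. The other 13 families had 1 to 4 counts each. Of the 107 fragments, 13 were seen in all 6 libraries, 45 in 1 library only and 88 had fewer than 10 counts in all.

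As a whole, these fragments took a smaller share of the counts in every knockout library than in any wild-type library. The share was 1.30%, 0.991% and 1.09% in wild-type replicates 1 to 3 and 0.783%, 0.872% and 0.980% in knockout replicates 1 to 3. The means were 1.13% ± 0.158 and 0.879% ± 0.0984 (SD, n = 3 each), with a two-sided exact permutation p of 0.1, the smallest that 3 against 3 libraries allow. The libraries are bulk RNA, in which fewer cells holding a fragment and less of it per cell cannot be told apart. The gap between the nearest libraries, wild-type replicate 2 and knockout replicate 3, was small beside the spread within each group, and the groups overlapped when totals were scaled by TMM or when all 5′ fragments of 19 nt or longer were the denominator (exact permutation p of 0.2 for both). Of the 3 leading families, only Gln-CTG had a lower share in every knockout library than in any wild-type library. Its shares were 0.339%, 0.280% and 0.288% in wild-type cells and 0.130%, 0.174% and 0.169% in the knockout. The share of the members without Gln-CTG was not tested. Among all single fragments tested, 30.6% lay lower in every knockout library. The 6 fragments with most counts held 0.741% ± 0.0841 of the total in wild-type cells and 0.571% ± 0.0854 in the knockout, and the 101 others 0.387% ± 0.0764 and 0.308% ± 0.0166 (exact permutation p of 0.1 and 0.3). When the shorter 5′ forms of the same families, 16 to 18 nt, were added, the groups overlapped. The difference was then 0.0223 percentage points, higher in the knockout (exact permutation p of 1). Shares were 1.80%, 1.49% and 2.85% in wild-type replicates 1 to 3 and 1.74%, 2.39% and 2.07% in knockout replicates 1 to 3. Wild-type replicate 3, the highest, held 284 counts in short Tyr-GTA forms. This comparison was not run without that library.

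Only 6 of the 107 fragments had enough counts to be tested singly, and 1 of them changed. That one fell: the 29 nt fragment of tRNA-Gln-CTG, tRF-29-R9J89O9NF5JP. Among all 235 fragments tested, 28.1% were called lower and 25.5% higher (53.6% in either direction, edgeR's quasi-likelihood test, Benjamini-Hochberg adjusted p under 0.05), so 1 lower and 0 higher of 6 is no more than that background. The median log2 fold change of the 6 was -0.38, against -0.01 over all 235. As sums over a family, 3 of the 22 could be tested and 1, Gln-CTG, was lower, where 30.9% of the 188 entries of that table were called lower and 56.9% in either direction.

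The Gln-CTG fragment counted 98, 39 and 50 in wild-type replicates 1 to 3 and 23, 25 and 35 in knockout replicates 1 to 3. Scaled by library, these were 3369, 2590 and 2382 CPM in the wild-type and 1132, 1478 and 1512 CPM in the knockout (library totals scaled by TMM). Every knockout library lay below every wild-type library, as did 30.6% of all fragments tested. Its log2 fold change, knockout minus wild-type, was -1.02 (SE 0.270, 95% confidence interval -1.62 to -0.43, edgeR adjusted p = 0.00914). The call was lost when wild-type replicate 1 was left out (log2 fold change -0.82, edgeR adjusted p = 0.0612), without knockout replicate 1 (-0.77, edgeR adjusted p = 0.0640), with no low-count filter (-1.06, edgeR adjusted p = 0.141) and with DESeq2's Wald test (-0.91, DESeq2 adjusted p = 0.0698). Over all settings tried the fold change stayed between -1.14 and -0.77 and the adjusted p between 0.00771 and 0.141.

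This tRNA decodes the glutamine codon CAG, and its 5′ fragments had nearly a single length. The family held 270 counts in the 29 nt fragment, 16 in a second 29 nt form and 10 in the 28 nt fragment, with 6 counts in the remaining 3. The forms of 29 nt differ at 1 base near the GG pair, the second form by T20G and a scarce form of 2 counts by T20A. Capitals mark bases 16 and 20.
Common form, tRF-29-R9J89O9NF5JP: ggttccatggtgtaaTggtTagcactctg
T20G form, tRF-29-R9J89O94F5JP: ggttccatggtgtaaTggtGagcactctg
T20A form, tRF-29-R9J89O9LF5JP: ggttccatggtgtaaTggtAagcactctg
The T20A form matched TRQ-CTG7-1 (chromosome 1, 148328812 to 148328883, plus strand, GRCh38), and the others matched no gene searched.

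Counts of the T20G form were 9, 3 and 0 in wild-type cells and 2, 0 and 2 in the knockout, too few for a test at this depth. The 28 nt fragment counted 2, 2 and 2 against 1, 2 and 1. As a sum, the Gln-CTG family counted 111, 44 and 53 in wild-type cells and 27, 28 and 39 in the knockout, or 0.339%, 0.280% and 0.288% of counts against 0.130%, 0.174% and 0.169%. The groups did not overlap, with the knockout below, as for 34% of the entries of that table. The log2 fold change was -1.02 (SE 0.286, 95% confidence interval -1.64 to -0.41, edgeR adjusted p = 0.00911). Leaving out wild-type replicate 1 ended the family's call (edgeR adjusted p = 0.0733), as did leaving out knockout replicate 1 (0.0606), dropping the low-count filter (0.308) and using DESeq2's Wald test (DESeq2 adjusted p = 0.0670).

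No such difference was detected for tRNA-Gly-TCC, the most abundant family, whose tRNA reads the glycine codon GGA. Its sum counted 210, 84 and 99 in wild-type cells and 106, 76 and 134 in the knockout. That was 0.641%, 0.534% and 0.537% of counts against 0.509%, 0.474% and 0.581%, with overlap between the groups. The log2 fold change was -0.21 (SE 0.268, 95% confidence interval -0.79 to 0.37, edgeR adjusted p = 0.533), and it turned to 0.09 without wild-type replicate 1. The first 15 bases differ from those of the major tRNA-Gly-GCC fragments by A3G, T12A and C13T, the Gly-GCC base first.

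The Gly-TCC fragments came mainly in 2 forms that differ by T20G, each in a ladder of lengths. The 12 fragments of the T form held 189 counts and the 17 of the G form 518. One of those 17, tRF-28-QNR8VP94FQZ, differs from the other G fragment of 28 nt by C28T in its last base, and both had 12 counts (3, 1 and 1 in wild-type cells and 4, 1 and 2 in the knockout for the C28T one). Both are shown at 30 nt, with bases 16 and 20 in capitals.
T form, tRF-30-QNR8VP9NFQFY: gcgttggtggtatagTggtTagcatagctg
G form, tRF-30-QNR8VP94FQFY: gcgttggtggtatagTggtGagcatagctg
The 20 nt T form matched TRG-TCC1-1 (chromosome 19, 4724070 to 4724141, plus strand, GRCh38), of which the reference held 23 bases, so the longer fragments could not be matched. The G form matched no gene searched.

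The G form took a larger part of the family in the knockout libraries. Its share of the Gly-TCC counts of 20 nt or longer was 68.4%, 65.5% and 74.7% in wild-type cells and 79.05%, 80.3% and 76.1% in the knockout. Every knockout library lay above every wild-type library; replicate 3 of each group came closest. The means were 69.5% ± 4.74 and 78.5% ± 2.13 (SD, n = 3 each; exact permutation p of 0.1, the smallest possible). This split was looked at after the counts were seen.

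Single Gly-TCC fragments showed wide spreads, and none of the 4 tested was called. The G form of 30 nt counted 64, 17 and 26 in wild-type cells and 21, 24 and 34 in the knockout, a log2 fold change of -0.25 ± 0.331 (SE; adjusted p = 0.548 by edgeR) that reached 0.17 without wild-type replicate 1. The G form of 29 nt counted 32, 10 and 28 against 32, 19 and 34, a log2 fold change of 0.41 ± 0.326 (SE; adjusted p = 0.317 by edgeR) that was 0.13 without wild-type replicate 2 and 0.66 without wild-type replicate 3. For the 30 nt T form the counts were 30, 19 and 8 against 9, 5 and 18. Its log2 fold change was -0.76 (SE 0.493, edgeR adjusted p = 0.219), and without wild-type replicate 3 it was called lower (-1.06, edgeR adjusted p = 0.0410). The 32 nt G form, a 5′-half, counted 20, 14 and 4 against 7, 9 and 17, a log2 fold change of -0.12 (SE 0.524, 95% confidence interval -1.27 to 1.03, edgeR adjusted p = 0.853).

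Below these came 4 Gly-TCC fragments that also rank among the 12 most abundant members but had too few counts for the test. The T form of 29 nt counted 13, 3 and 10 in wild-type cells and 10, 3 and 6 in the knockout. The G form of 31 nt counted 13, 8 and 5 against 5, 2 and 4, the T form of 32 nt 10, 5 and 1 against 2, 5 and 5, and the T form of 31 nt, tied for the last place, 7, 0 and 5 against 0, 0 and 2. With a looser filter, 5 or more counts in at least 3 libraries, the first 3 could be tested and none was called (edgeR adjusted p of 0.148 to 0.865).

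Where the Gly-TCC fragments ended did not separate the groups over all 6 libraries. Of the counts at 29 and 30 nt, those at 30 nt made up 67.6%, 73.5% and 47.2% in wild-type cells and 41.7%, 56.9% and 56.5% in the knockout (exact permutation p of 0.3). Fragments of 31 nt or longer made up 26.5% ± 9.82 of the family in wild-type cells and 22.1% ± 3.63 in the knockout (SD, n = 3 each, exact permutation p of 0.5). Wild-type replicate 3 had the lowest value of its group in both measures. Without it every knockout library lay below both wild-type libraries in each: the difference was -18.9 percentage points in place of -11.1 at 30 nt, and -9.59 in place of -4.42 for 31 nt or longer (exact permutation p of 0.2 for both, the smallest that 3 against 2 libraries allow).

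Leu fragments were mostly shorter than those of Gly-TCC and Gln-CTG. The family of tRF-25-SP5830MMUK held 85 counts in that 25 nt fragment, 14 in the 24 nt form (3, 4 and 2 in wild-type cells against 2, 0 and 3) and 11 in the 22 nt form, and its longest member had 29 nt. Its common form carries a C before the GG pair, and a scarce form differs by C16T.
Common Leu form, tRF-25-SP5830MMUK: gtcaggatggccgagCggtctaagg
C16T form, tRF-22-SP58309MO: gtcaggatggccgagTggtcta
The C16T form, at 21 and 22 nt, matched TRL-CAA1-1 (chromosome 6, 28896223 to 28896328, minus strand, GRCh38). The common form, which cannot carry dihydrouridine at that base, is known from tRNA-Leu-CAG.

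Neither the Leu family nor its main fragment was called. The family counted 43, 15 and 26 in wild-type cells and 16, 14 and 26 in the knockout, or 1254 ± 308 against 907 ± 181 CPM (SD, n = 3 each). The log2 fold change was -0.48 (SE 0.328, 95% confidence interval -1.19 to 0.23, edgeR adjusted p = 0.230). The 25 nt fragment counted 30, 8 and 14 against 11, 7 and 15, a log2 fold change of -0.50 ± 0.385 (SE; adjusted p = 0.298 by edgeR). The groups overlapped in both, and without wild-type replicate 1 the fold changes were -0.21 for the family and -0.13 for the fragment.

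The Lys-CTT family differs at 1 base of the first 15, G5A, from a tRNA-Lys start that was set aside as common but had no 5′ fragment in the table. Its members were all long: the shortest had 30 nt, and the most abundant, tRF-33-P6QP4PW3FJI0W, ends just before the anticodon. That fragment counted 2, 1 and 10 in wild-type cells and 5, 3 and 3 in the knockout, with wild-type replicate 3 the highest of all. The family counted 12, 6 and 14 against 7, 4 and 8, and with the looser filter had a log2 fold change of -0.49 ± 0.458 (SE; adjusted p = 0.409 by edgeR).

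The remaining families were too scarce for a test. Tyr-GTA counted 15, 1 and 4 in wild-type cells and 1, 3 and 3 in the knockout. Phe-GAA counted 10, 0 and 1 against 0, 3 and 4, and Thr-TGT 5, 3 and 2 against 1, 0 and 5. Ser counted 3, 1 and 1 against 2, 3 and 1, and Lys-TTT, which differs by C4T from the other tRNA-Lys start set aside, 6, 1 and 0 against 1, 1 and 2. At these counts no difference was detectable. A second Ser family counted 1, 0 and 0 against 1, 1 and 1, Asp 2, 0 and 0 against 0, 0 and 1, Met 3, 0 and 0 against 0 in each, and Ile 0, 0 and 1 against 1, 1 and 0. A Val-TAC family had 2 counts and the Arg family 1, all in wild-type replicate 1.

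Another 7 families, with 11 fragments of 1 count each, are not separate tRNAs by sequence but common ones with 1 extra base at the 5′ end. From base 2 on they begin like the major Gly, Glu, Val and His fragments (tRNA-His is known to gain a G before its first base, and the His family differs from that common form by G1C), or match the mitochondrial gene MT-TH. The last, tRF-50-9OHL7X0OBQJE9UHY0DFK, goes against the nuclear label: it escaped the exact match to mitochondrial tRNA genes only by that base. One example is shown for each of His, Val and Gly, with the extra base in capitals.
His, tRF-30-LSXMSL73VL4Y: Cgccgtgatcgtatagtggttagtactctg
Val, tRF-30-RZ3L7L73V6M9: Ggtttccgtagtgtagtggttatcacgttc
Gly, tRF-33-6Q947673FEWSD3: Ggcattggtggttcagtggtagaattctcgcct
Of the 11 counts, 3 lay in wild-type cells and 8 in the knockout, each fragment in a single library.

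Several families share the stretch that leads into the D-loop. Bases 8 to 15 read TAGCTCAG in 6 families (Lys-CTT, Tyr, Phe, Thr, Lys-TTT and Ile, 37 fragments, 126 counts) and TGGCCGAG in 3 (Leu and both Ser families, 17 fragments, 155 counts). The TAGCTCAG families took 0.147%, 0.0699% and 0.119% of counts in wild-type cells and 0.0529%, 0.0748% and 0.0954% in the knockout, with overlap. For the TGGCCGAG families the shares were 0.143%, 0.102% and 0.147% against 0.0913%, 0.112% and 0.121%, also with overlap.

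Most fragments carried a possible dihydrouridine site, usually a single one. A lone T stood before the GG pair in 58 fragments with 1048 counts (79.9% of member counts). A lone C stood there in 9 Leu fragments with 134 counts, TC in 14 Lys fragments with 62 counts, TT in 12 fragments of Phe, Tyr and Ile with 25 counts, and CT in 6 Tyr fragments with 23 counts. In Thr-TGT, 5 fragments with 16 counts, the run of G starts at once. Counted simply along the sequence, fragments with T at just 1 of bases 16 and 17 made up 86.97% ± 1.30 of member counts in wild-type cells and 86.6% ± 2.23 in the knockout (SD, n = 3 each, exact permutation p of 1). Those with T at neither made up 11.7% ± 1.19 and 11.5% ± 1.57 (exact permutation p of 0.9), and those with T at both 1.35% ± 1.56 and 1.89% ± 1.16 (exact permutation p of 0.8; adjusted over these 3 classes, p was 1 for each).

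In length, the fragments peaked just before the anticodon loop. Of all member counts, 38.0% were of 29 nt, 22.03% of 30 nt and 8.99% of 25 nt, the Leu length, and 96.7% ended before base 34. Lengths of 19 to 24 nt made up 8.29% ± 1.43 of member counts in wild-type cells and 10.4% ± 1.52 in the knockout (exact permutation p of 0.3). Lengths of 25 to 29 nt made up 52.0% ± 6.98 and 50.1% ± 4.40 (exact permutation p of 0.7), and 30 to 34 nt 38.0% ± 6.46 and 36.8% ± 4.11 (exact permutation p of 0.8). For 35 nt or more the values were 1.73% ± 0.788 and 2.66% ± 0.202 (exact permutation p of 0.2). The groups overlapped in each class (adjusted p of 0.6 to 0.8 over the 4 classes).

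The same families also have 5′ forms of 16 to 18 nt, which end at or beside the D-loop sites. Over all 6 libraries the groups overlapped in the share of these forms. Their share of all 5′ counts of these families was 27.8%, 33.6% and 61.7% in wild-type cells and 55.1%, 63.5% and 52.7% in the knockout (exact permutation p of 0.3). Wild-type replicate 3 lay among the knockout libraries, with 284 counts in the short Tyr-GTA forms alone; without it the difference was 26.4 percentage points in place of 16.1. Tyr-GTA held most of the short-form counts, 440 in wild-type cells and 502 in the knockout. Leaving out that family, the shares were 13.1%, 13.9% and 16.9% against 27.0%, 32.5% and 23.4%, with no overlap (exact permutation p of 0.1, chosen after the counts were seen). Among all single fragments tested, 58.7% also had no overlap, in either direction.

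Apart from the 16 nt Tyr-GTA forms, single short forms were low in counts. More families had higher than lower short-form counts in the knockout. The 16 nt Tyr-GTA form ending in C counted 67, 38 and 198 in wild-type cells and 78, 80 and 116 in the knockout. The form ending in T counted 32, 16 and 84 against 41, 76 and 51, and the groups overlapped in both. The Phe fragment of 17 nt, tRF-17-PUDP4PQ, counted 0, 0 and 1 in wild-type cells and 4, 6 and 5 in the knockout, while the longer Phe fragments did not separate the groups. The Tyr-GTA fragment of 17 nt that ends in TT was at 0 in all 3 wild-type libraries and at 14, 13 and 10 in knockout libraries. Its pooled knockout CPM was 13.8 times a floor of 3 counts over the wild-type group. That floor covers counting error on the wild-type side only, and the fragment was picked after the counts were seen. The 17 nt Tyr-GTA form ending in CT counted 1, 0 and 2 against 7, 8 and 6. The 16 nt Ser fragment counted 4, 5 and 2 against 14, 13 and 13. Summed by family, short Ser forms counted 13 in wild-type cells and 50 in the knockout, Ile 3 and 26, and Phe 1 and 20. Val-TAC counted 4 and 17, Gly-TCC 7 and 17, Lys-TTT 1 and 9, and Thr 1 and 4. In contrast, short Asp forms counted 19 and 0, of which 15 were in wild-type replicate 1. Those of Gln-CTG counted 4 and 0, all in wild-type replicate 1. Leu counted 71 and 48, the second Ser family 2 and 1, and Lys-CTT 1 and 0. Sums of short forms alone were not tested. With these forms added to the family sums, Ser was called higher (log2 fold change 1.76, SE 0.430, edgeR adjusted p = 0.00276), Gln-CTG stayed lower (-0.99, edgeR adjusted p = 0.00867), and Tyr-GTA, Gly-TCC and Leu were not called (edgeR adjusted p of 0.499, 0.742 and 0.225). Of all 182 entries tested this way, 29.1% were called higher and 30.8% lower, so 1 of 5 in each direction is no more than the background.

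Internal fragments that lie within a member and in no 5′ fragment of another family were few for the 3 leading families. For Gly-TCC they held 65 counts, 9, 4 and 18 in wild-type cells and 13, 6 and 15 in the knockout. For Gln-CTG they held 45 counts, 7, 6 and 10 against 4, 8 and 10, and for Leu 59 counts, 26, 3 and 11 against 6, 3 and 10, with overlap in all 3 families. Lys-CTT stood apart from these, with 118 such fragments and 9872 counts. They made up 4.92%, 6.38% and 5.86% of the counts in wild-type libraries 1 to 3, below the 11.6%, 10.2% and 9.20% of knockout libraries 1 to 3. Groups without overlap, in either direction, were found for 58.7% of all single fragments tested. The difference in these internal fragments was not tested. Nearly all of these fragments, 112 with 9858 counts, start after base 5, the base at which this family differs from the other tRNA-Lys start, and so cannot be assigned to either. The 6 that cover base 5 had 14 counts, 1, 0 and 3 against 4, 2 and 4.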

How the data were processed

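The authors deposited raw read counts per fragment for 6 small RNA libraries. MINTmap made the fragment assignments and DESeq2 the authors' own comparison, per the labels and the design text. The submitters' processing notes also name cutadapt, FastQC and the build GRCh38 (hg38), with no version. Total RNA was size-selected and sequenced as single-end reads. The counts were used as they stand. Without molecular identifiers, PCR copies cannot be told from molecules, so floors cover counting error only.

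Identifiers were decoded to sequences, which were all different. Nuclear parents were sought in GRCh38 sequence from RefSeq promoter windows and GENCODE transcripts that overlap annotated tRNA genes. Fragments were tested with edgeR 4.0.16 (R 4.3.3): filterByExpr with a minimum count of 10, trimmed mean of M-values (TMM) scaling and the quasi-likelihood test, two-sided, Benjamini-Hochberg adjusted over all 235 fragments at 0.05. The same test ran on a table in which 5′ fragments of 19 nt or longer were summed by their first 15 bases. Single shares were compared by exact permutation in scipy 1.17.1. Alternatives were DESeq2 1.42.0, other scalings and filters, a replicate block, other length limits and leaving out each library. Of these steps, only the edgeR test was tried on simulated counts with known fold changes. Named are every member or family called and the 12 with most counts. Members and lists were chosen with earlier results of these data known.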

Additional observations from a re-analysis of the deposited data

How the results depend on the processing

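Depth is the main limit: 101 of the 107 fragments and 19 of the 22 families had too few counts for a test. The fall of the Gln-CTG fragment and family kept its direction under every alternative run, with a log2 fold change of the family between -1.08 and -0.72, but not its call. Both the number of fragments and the number of families called lower, 1 each, were 0 with no low-count filter and 0 with DESeq2's Wald test (1 fragment and 1 family at an unadjusted p under 0.05 by DESeq2), and with each library left out ranged from 0 to 2 for fragments and 0 to 1 for families. With 5′ fragments of 16 nt or longer summed, 1 of 5 families tested was called higher, as were 29.1% of all entries. The difference in the share of all counts turned to 0.0223 percentage points with every listed length, where wild-type replicate 3 had the highest share. Without the short forms, the difference lay between -0.317 and -0.162 with each library left out.

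With each library left out, differences near 0 changed sign: 25 to 29 nt (-4.71 to 2.06 percentage points), 30 to 34 nt (-4.58 to 1.87), T at both (-0.13 to 1.40), 1 (-1.50 to 0.72) or neither (-1.11 to 0.42) of bases 16 and 17, and Gly-TCC fragments of 31 nt or longer (-9.59 to 0.19). So did the log2 fold changes of the 30 nt G form (-0.48 to 0.17) and 32 nt G form (-0.48 to 0.25) of Gly-TCC and of the Gly-TCC family (-0.27 to 0.091, and 0.041 with no low-count filter). The cause was not tested. DESeq2's size factors moved the median of all fragments from -0.01 to 0.10 (log2), and DESeq2's Wald test called 54 of them higher and 31 lower, against 60 and 66 by edgeR with TMM.

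Same-numbered libraries deviated from their group means with correlations of 0.37, -0.07 and 0.11, so the numbers were not taken as pairs. With a replicate block 1 fragment was called lower (log2 fold change of the Gln-CTG fragment -1.01, edgeR adjusted p = 0.0243) and 1 family.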
